A study of Gallus gallus with 12 samples.

Results

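The miR-221 and miR-222 miRNAs of chicken breast muscle are described here through the 3 mature miRNAs of these genes in the deposited table, gga-miR-221-5p, gga-miR-221-3p and gga-miR-222a (called miR-221-5p, miR-221-3p and miR-222a from here on). They were chosen by name, and the table holds 38 miRNAs in all. Small RNA from breast muscle was sequenced in 12 birds, 6 of the pedigree male (PeM) broiler, a line selected for growth and feed efficiency and provided by a commercial breeder, and 6 of the Barred Plymouth Rock (BPR), a slow-growing foundational breed kept at a university farm. The labels give an age of 8 weeks for all birds, which the methods state as an upper limit, give no treatment in either breed and do not give sex. Breed and source of the birds cannot be told apart. Values are RPM, in which the reads of each bird are scaled to the same total. RPM is not scaled by length. Mature miRNAs are of similar length, but miR-221-5p is the longest of the differing miRNAs whose sequences the paper lists.

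A miRNA hairpin is cut into a 5p and a 3p arm, and usually one arm is loaded into the silencing complex while the other is degraded. In mammals the miR-221 and miR-222 hairpins lie next to each other and come from 1 transcript, and their 3p arms share the seed, the bases near the 5′ end that pair with target mRNAs. MiR-221-3p and miR-222 of mammals repress the cell cycle inhibitor CDKN1B and the receptor KIT, and in quail and mouse myoblasts they fall as the cells differentiate. In vascular smooth muscle of the rat they promote proliferation. In mammals the 5p arm is usually described as the minor product of the miR-221 hairpin. In RefSeq (assembly GRCg7b), both arms of miR-221 matched the gene MIR221 and miR-222a matched MIR222, and 0 genes start between MIR221 and MIR222. MiR-221 was the only hairpin name with both arms among the 38 miRNAs.

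The depth of each bird was calculated from the RPM values, which within a bird rose in equal steps. With 1 step taken as 1 read, the steps gave totals of 4784 to 12454 reads per BPR bird (median 6963.5) and 3021 to 9120 reads per PeM bird (median 4134). These totals are far below the clean reads that the methods and results of the study describe, and the reason for this gap is not known. All reads, floors, counting errors and depths given here hold only if the steps are single reads. The difference in log2 totals between the breeds did not pass the exact two-sided permutation test (p = 0.0584). All 36 member values were whole reads within 0.005 read, whereas the 13 values of the table that were not belonged to let-7b, let-7c-5p, let-7g-5p and miR-17-5p. A floor of 3 reads corresponded to between 240.9 and 993 RPM, and every member was above it in every bird. Intervals from these reads cover counting error only.

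By RPM, miR-222a was the most abundant of the 3, in 6 of 6 BPR birds and 6 of 6 PeM birds. It averaged 11123 RPM over the 12 birds and ranked 12 of 38. MiR-221-5p averaged 4620 RPM (rank 25) and miR-221-3p 3257 RPM (rank 30). Together the 3 miRNAs took 1.9% of the reads. By mean RPM, miR-221-5p ranked 31 in BPR, behind miR-221-3p at 29, and 21 in PeM, ahead of miR-221-3p at 29. In single birds, miR-221-5p was above miR-221-3p in 3 of 6 BPR birds and 5 of 6 PeM birds. The difference in the ratio of the arms between the breeds did not pass the exact two-sided permutation test (p = 0.0584).

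**Figure D1:**
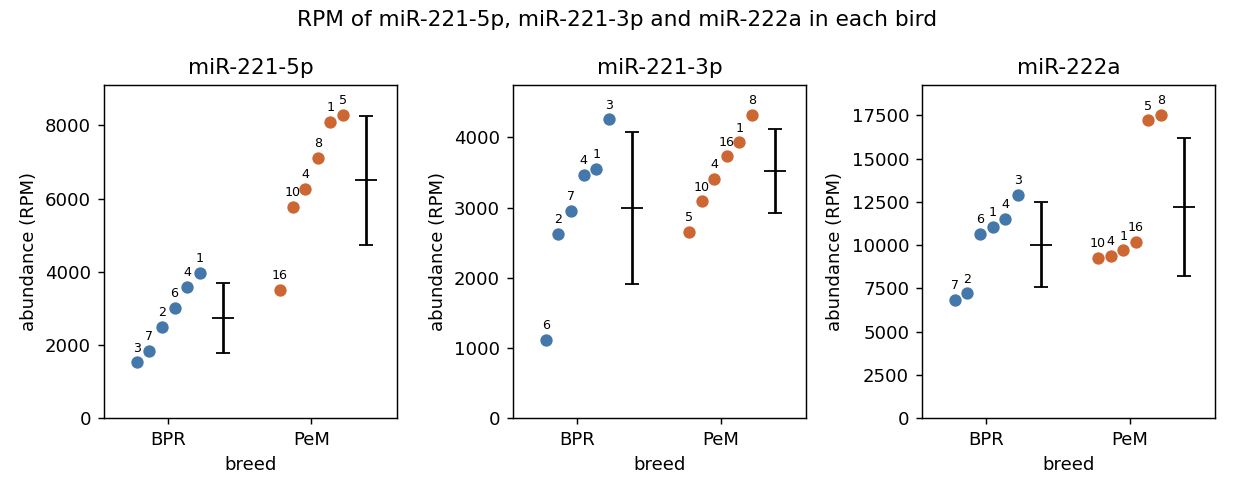
Abundance in RPM (vertical axis) of miR-221-5p, miR-221-3p and miR-222a in the 6 BPR and 6 PeM birds. Points are birds, labelled with the bird number and ordered by value, and the bars are the mean and SD of a breed. In miR-221-5p, 5 of the 6 PeM birds lie above the highest BPR bird at 3972 RPM, while the breeds overlap widely in miR-221-3p and miR-222a.

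MiR-221-5p, the 5p arm, was higher in PeM. The 6 BPR birds ranged from 1526 RPM (bird 3) to 3972 RPM (bird 1), with a median of 2754 RPM. The 6 PeM birds ranged from 3509 RPM (bird 16) to 8275 RPM (bird 5), with a median of 6682 RPM. Thus 5 PeM birds exceeded every BPR bird, and bird 16 lay within the BPR range. BPR averaged 2740 ± 965 RPM (SD, n = 6), and PeM 6500 ± 1766 RPM (SD, n = 6). The log2 fold change was 1.27 (standard error 0.27, 95% interval 0.70 to 1.85), with a p-value adjusted over the 38 miRNAs of 0.00598 from limma. The exact two-sided permutation test gave p = 0.00649, and 0.0658 after adjustment over the 38 miRNAs. The smallest p of this permutation test, 0.00216, is too high for 1 miRNA alone to pass the adjustment. The log2 fold change of miR-221-5p ranked 3 of 38, where the median over all miRNAs was 0.07. The paper had already called this miRNA higher in PeM from the same sequencing. In the paper its qPCR was also higher in PeM, but by a smaller fold change than the sequencing. The paper gives a standard error but no p-value for this qPCR, which used a ribosomal RNA as its internal control. The paper counts this miRNA among those whose qPCR matched.

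MiR-221-3p, the arm that carries the seed shared with miR-222, did not pass the test. In BPR it ranged from 1111 RPM (bird 6) to 4256 RPM (bird 3), with a median of 3210 RPM. In PeM it ranged from 2648 RPM (bird 5) to 4315 RPM (bird 8), with a median of 3571 RPM. The BPR range enclosed 5 of the 6 PeM birds. BPR averaged 2994 ± 1078 RPM and PeM 3520 ± 600 RPM (SD, n = 6 each), a log2 fold change of 0.33 with a 95% interval of -0.26 to 0.92 (limma, adjusted p = 0.588). The low BPR bird 6 carried much of this difference, which was 0.06 on the log2 scale without that bird.

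MiR-222a did not pass either. BPR birds ranged from 6827 RPM (bird 7) to 12928 RPM (bird 3), with a median of 10857 RPM. PeM birds ranged from 9263 RPM (bird 10) to 17513 RPM (bird 8), with a median of 9951 RPM. PeM birds 5 and 8 were above all BPR birds and the other 4 PeM birds lay within the BPR range. The mean was higher in PeM (12213 ± 4003 RPM against 10033 ± 2461 RPM, SD, n = 6 birds each) while the median was lower. The log2 fold change was 0.26 with a 95% interval of -0.23 to 0.76 (limma, adjusted p = 0.588), and the exact permutation test gave p = 0.292. Without PeM bird 8 it was 0.15, and without PeM bird 5 it was also 0.15.

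The study called a miRNA different at a p under 0.05, without adjustment, and over 1.2-fold. Here these thresholds were applied to limma in place of the study's t-statistic, so the shares are not the study's own. Of the 3 members, 1 passed both thresholds, where 21.1% of all 38 miRNAs did, 18.4% higher and 2.63% lower in PeM. The breeds overlapped in all 3 members, and they did not overlap in 2.63% of the 38. An adjusted p under 0.05 was reached by 13.2% of the 38. The intervals of miR-221-3p and miR-222a include 0 as well as changes of up to 0.92 and 0.76 on the log2 scale. Because whole muscle was sequenced, a difference in cell types and a difference in miRNA per cell cannot be told apart.

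**Figure D2:**
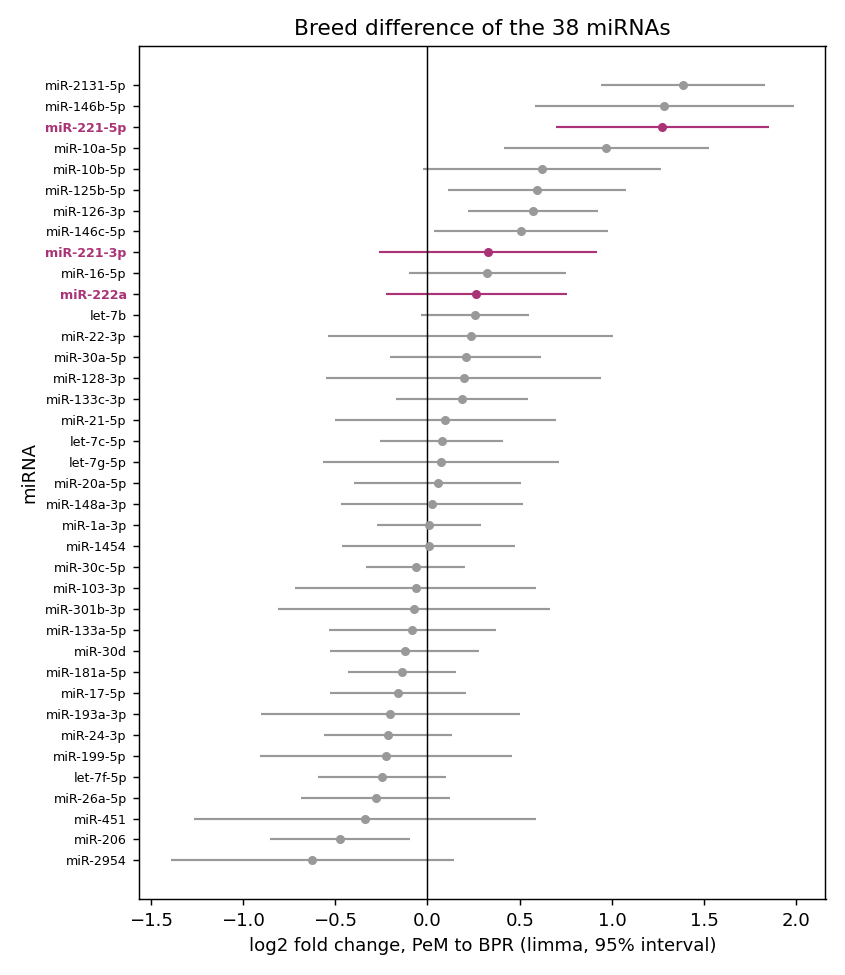
Log2 fold change of PeM to BPR with the 95% interval from limma (horizontal axis) for each of the 38 miRNAs (vertical axis), ordered by fold change. MiR-221-5p ranks 3 of 38 at 1.27, and the intervals of miR-221-3p (0.33) and miR-222a (0.26), also coloured, cross 0.

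The ratio of 2 miRNAs within a bird does not depend on how the reads were scaled, and the arms of miR-221 come from the same hairpin. These are ratios of reads, and how far they follow the amounts of each miRNA in the muscle was not tested. MiR-221-5p made up 48.4% ± 15.6 of the reads of both arms in BPR and 63.9% ± 8.89 in PeM (SD, n = 6 birds each). In BPR the share ran from 26.4% in bird 3, where the exact 95% binomial interval was 16.7% to 38.1% at 72 reads, to 73.1% in bird 6, where it was 52.2% to 88.4% at 26 reads. The other 4 BPR birds lay between 38.5% and 52.8%, with intervals that include 50%. In PeM, 5 of 6 birds had more reads of the 5p than of the 3p arm, at 62.2% to 75.8%, and in bird 16 the share was 48.5%. The interval excluded 50% in 2 PeM birds, bird 1 (52.9% to 79.7%) and bird 5 (57.7% to 88.9%).

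**Figure D3:**
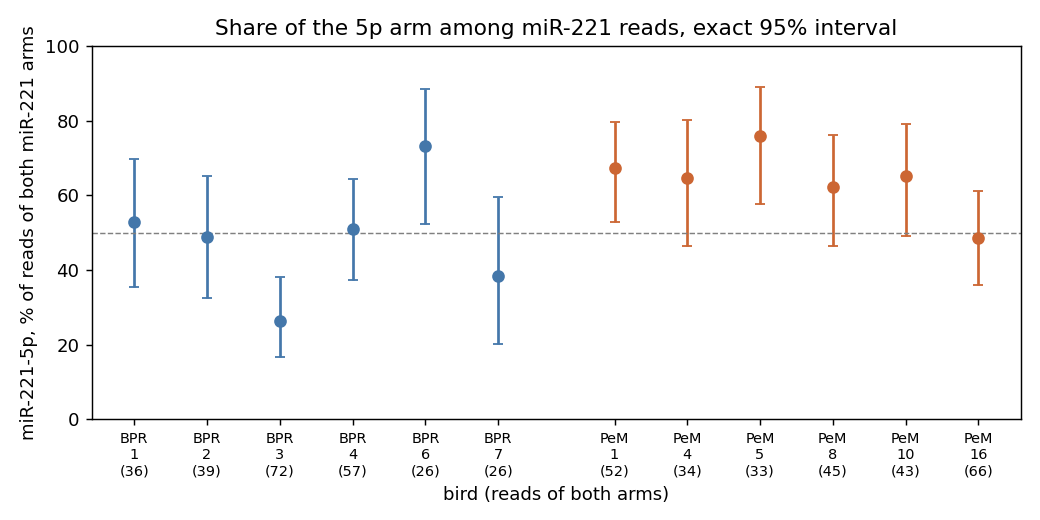
Share of miR-221-5p among the reads of both miR-221 arms in each bird (vertical axis, %), with the exact 95% binomial interval. Numbers in parentheses under each bird are its reads of both arms, and the dashed line marks 50%. Of the PeM birds, 5 lie above 60%, and the BPR birds spread from 26.4% to 73.1%.

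The geometric mean ratio of miR-221-5p to miR-221-3p was 0.94 in BPR and 1.8 in PeM. On the log2 scale it averaged -0.10 ± 0.97 in BPR and 0.85 ± 0.56 in PeM (SD, n = 6 birds each). This difference of 0.95 did not pass the exact two-sided permutation test (p = 0.0584, adjusted p = 0.214 over the ratios of all 703 pairs of miRNAs). It passed without BPR bird 6, whose ratio was the highest of that breed (difference 1.25, exact permutation p = 0.0108), and without PeM bird 16, whose ratio was the lowest of the other (1.13, exact permutation p = 0.039). Without each of the other 10 birds in turn it did not pass (exact permutation p = 0.0801 to 0.1255). The highest p was without BPR bird 3, where the difference was 0.669. Limma on the ratios of all pairs gave an unadjusted p of 0.0297, an adjusted p of 0.139 and a 95% interval of 0.10 to 1.79. Counting error alone corresponded to an SD of 0.50 in BPR and 0.47 in PeM on the log2 scale.

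The ratio of miR-222a to miR-221-3p, the pair with the shared seed, did not detectably differ between the breeds. Its geometric mean was 3.52 in BPR and 3.37 in PeM. The log2 ratio averaged 1.82 ± 0.73 in BPR and 1.75 ± 0.52 in PeM (SD, n = 6 birds each), and the difference of -0.06 had a 95% interval of -0.79 to 0.67 (limma on the ratios of all pairs). The exact permutation test gave p = 0.823. The ratio was lowest in BPR bird 7 at 2.31 and highest in BPR bird 6 at 9.57, while all 6 PeM birds, from 2.47 to 6.5, lay within the BPR range. The ratio in BPR bird 6 rests on 7 reads of miR-221-3p and 67 of miR-222a, by the totals calculated from the steps. Without that bird the difference was 0.22.

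MiR-221-5p was higher relative to miR-222a in PeM. Its geometric mean ratio to miR-222a was 0.27 in BPR and 0.53 in PeM, and 5 of 6 PeM birds were above all BPR birds. The log2 ratio averaged -1.91 ± 0.59 in BPR and -0.90 ± 0.48 in PeM (SD, n = 6 birds each), a difference of 1.01 (exact two-sided permutation test, p = 0.00649, adjusted p = 0.0702 over all pairs). Limma on the ratios of all pairs gave a 95% interval of 0.34 to 1.68 and an adjusted p of 0.0423. Of the 703 pairs, 25.2% had a permutation p under 0.05 and 4.98% an adjusted one. The difference was between 0.78 and 1.14 when each bird was left out in turn, with a permutation p under 0.05 each time. With the total reads as a covariate in limma the difference was 0.59 and no longer passed (unadjusted p = 0.106, adjusted p = 0.323).

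**Figure D4:**
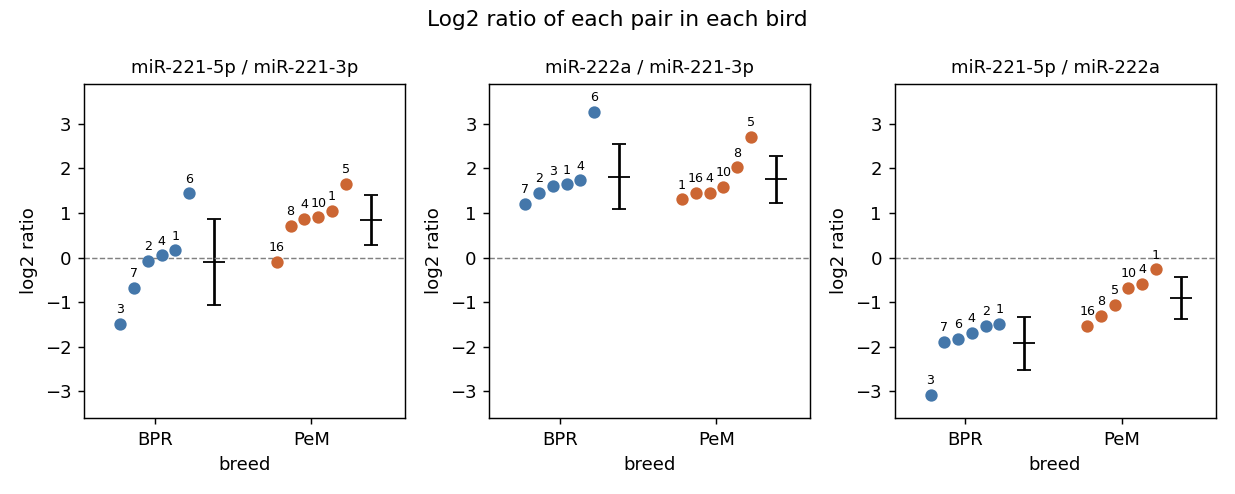
Log2 ratio (vertical axis) of each pair of the 3 miRNAs in the 6 BPR and 6 PeM birds. Points are birds with their numbers, ordered by value, bars are the mean and SD of a breed, and the dashed line marks equal RPM. The ratio of miR-221-5p to miR-222a is higher in PeM by 1.01 (exact permutation test, p = 0.00649, adjusted p = 0.0702 over all pairs). That of miR-222a to miR-221-3p differs by -0.06.

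The sums follow from these values and are given without a test. Both miR-221 arms together ranged from 4127 to 7525 RPM in BPR and from 7237 to 12015 RPM in PeM, where only bird 16 lay within the BPR range. BPR averaged 5734 ± 1327 RPM and PeM 10020 ± 1788 RPM (SD, n = 6 each), a log2 difference of 0.82. MiR-221-3p and miR-222a together averaged 13026 ± 3036 RPM for BPR and 15733 ± 4048 RPM for PeM, a log2 difference of 0.27, and 4 of the 6 PeM birds lay within the BPR range. All 3 miRNAs together averaged 15766 ± 3305 RPM for BPR and 22232 ± 5101 RPM for PeM, a log2 difference of 0.49.

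With both breeds pooled, miR-221-5p took a smaller share of the reads in deeper birds. BPR birds 1, 2, 3 and 6 each had 19 reads of miR-221-5p, at totals of 4784, 7627, 12454 and 6300 reads. BPR bird 3, the deepest, had 53 reads of miR-221-3p and 161 of miR-222a, and both were the highest of the 12 birds. Over the 12 birds, log2(RPM) of miR-221-5p was related to log2 of the total reads with Pearson's r = -0.81 (permutation p = 0.00178, adjusted p = 0.0338 over the 38 miRNAs) and Spearman's rho = -0.84 (permutation p = 0.0012, adjusted p = 0.0456). Without BPR bird 3 and PeM bird 16, the farthest from the median depth, r was -0.76. Within the breeds r was -0.55 in BPR (exact permutation p = 0.267, adjusted p = 0.69) and -0.91 in PeM (exact permutation p = 0.0347, adjusted p = 0.264). Without the 2 birds farthest in depth it was 0.75 in BPR and -0.12 in PeM, so that the relation within each breed rests on those birds. This r over the 12 birds was the lowest of the 38 miRNAs, whose median was -0.26. The highest, 0.81, was that of miR-206, the 1 miRNA past the thresholds and lower in PeM. PeM birds had a lower median depth and more miR-221-5p, so r over the 12 birds also holds the breed difference. RPM itself has the total reads as its divisor. For miR-221-3p r was 0.04 (permutation p = 0.909, adjusted p = 0.909), with 0.32 in BPR and 0.35 in PeM (exact permutation p = 0.511 and 0.51). For miR-222a it was -0.24 (permutation p = 0.456, adjusted p = 0.63), with 0.43 in BPR and -0.44 in PeM (exact permutation p = 0.386 and 0.418). The log2 ratios of the members do not hold the total reads as a divisor. Their r with log2 of the total reads is given without a test. For miR-221-5p to miR-221-3p it was -0.75 over the 12 birds (-0.54 in BPR, -0.90 in PeM). For miR-221-5p to miR-222a it was -0.76 (-0.78 in BPR, -0.46 in PeM). For miR-222a to miR-221-3p it was -0.20 (-0.08 in BPR, -0.54 in PeM).

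**Figure D5:**
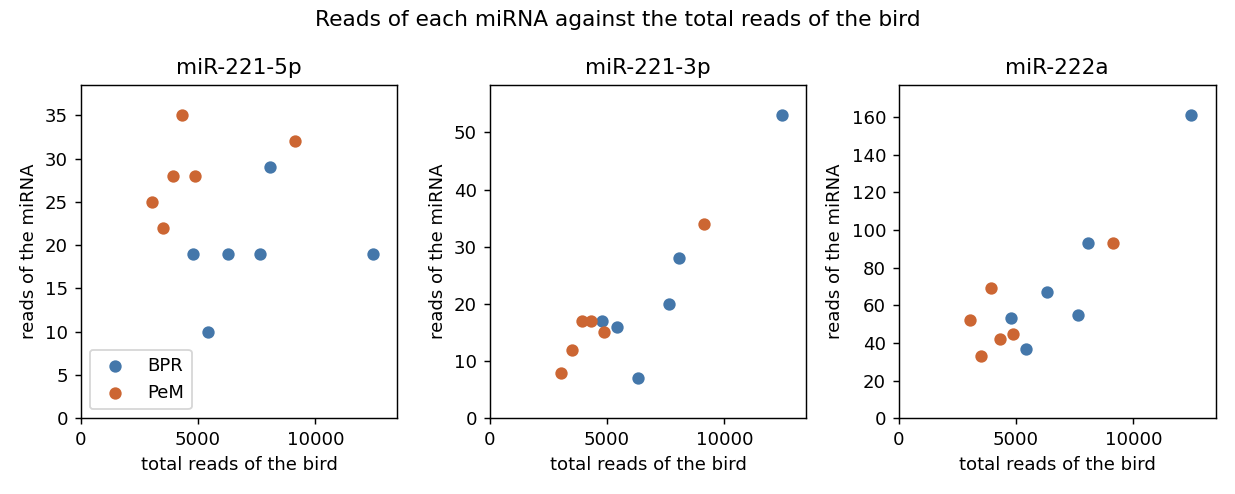
Reads of each miRNA (vertical axis) against the total reads of the bird (horizontal axis), both calculated from the RPM steps, for 6 BPR and 6 PeM birds. For miR-221-3p and miR-222a the highest point is the deepest bird at 12454 reads, where miR-221-5p had 19 reads.

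The total reads were related to miR-221-5p and had a lower median in PeM, so the breeds were also compared with log2 of the total reads as a covariate in limma, an alternative chosen after seeing the data. The log2 fold change of miR-221-5p was then 0.82 (95% interval 0.28 to 1.36, adjusted p = 0.0458), and it was still past the thresholds, as were 21.1% of the 38 miRNAs. The share equals that without the covariate, but only 5 of the 8 miRNAs were the same. Of the 8, 3 were lower in PeM, against 1 without the covariate. The log2 fold change of miR-221-3p was 0.52 (95% interval -0.19 to 1.23, adjusted p = 0.468) and that of miR-222a 0.23 (adjusted p = 0.654). The difference in the ratio of miR-221-5p to miR-221-3p fell to 0.30 (95% interval -0.56 to 1.17, limma unadjusted p = 0.472), with a smaller difference in miR-221-5p and a larger one in miR-221-3p. The difference in the ratio of miR-221-5p to miR-222a fell to 0.59 (95% interval -0.14 to 1.32), and that of miR-222a to miR-221-3p was -0.29 (limma unadjusted p = 0.499). At like depth, PeM bird 10 (4858 reads) had 5764 RPM of miR-221-5p and BPR bird 1 (4784 reads) had 3972 RPM. PeM bird 16 (9120 reads) had 3509 RPM and BPR bird 4 (8075 reads) had 3591 RPM. Other birds near these in depth were farther apart: PeM bird 1 (4328 reads) had 8087 RPM and BPR bird 7 (5420 reads) had 1845 RPM. BPR bird 2 (7627 reads) had 2491 RPM. These are single birds, and the difference at like depth was not tested with them.

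No covariation of the 3 miRNAs between birds was detectable with 12 birds. For miR-221-5p and miR-221-3p, Pearson's r of log2(RPM) over the 12 birds was 0.15 (permutation p = 0.67, adjusted p = 0.906 over all 703 pairs) and Spearman's rho was 0.17 (permutation p = 0.588, adjusted p = 0.895). Within the breeds r was -0.23 in BPR and -0.17 in PeM (exact permutation p = 0.715 and 0.735, adjusted p = 0.945 and 0.936). For miR-222a and miR-221-3p, r was 0.18 (permutation p = 0.534, adjusted p = 0.869) and rho 0.45 (permutation p = 0.139, adjusted p = 0.596), with r of 0.17 in BPR and -0.07 in PeM (exact permutation p = 0.806 and 0.91, adjusted p = 0.975 and 0.984). For miR-221-5p and miR-222a, r was 0.44 (permutation p = 0.15, adjusted p = 0.602) and rho 0.32 (permutation p = 0.307, adjusted p = 0.748), with 0.21 in BPR and 0.43 in PeM (exact permutation p = 0.667 and 0.374, adjusted p = 0.935 and 0.865). Without the 2 birds farthest from the median, r over the remaining birds was 0.47, 0.16 and 0.58 for these pairs in the same order. Within the breeds, where this leaves 4 birds, r ran from 0.29 to 0.88. With each bird centred on its median, r of miR-222a and miR-221-3p over the 12 birds was 0.50 (permutation p = 0.0925, adjusted p = 0.436). The median r over all 703 pairs was 0.03, and 90% of the pairs lay between -0.53 and 0.62.

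The spread between birds gives the scale for these correlations. In miR-221-3p of PeM the SD was 0.25 on the log2 scale, below the 0.38 that counting error alone would give, so little real variation between PeM birds could be seen in this arm. In BPR it was 0.69 against 0.36. In miR-222a the SD was 0.38 in BPR and 0.44 in PeM, against 0.18 and 0.20 from counting. In miR-221-5p it was 0.54 in BPR and 0.46 in PeM, against 0.35 and 0.27.

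The miRNAs whose deviations from the breed mean were most like those of each member over the 12 birds are given as a description. All share the RPM total and the depth of each bird. For miR-221-5p they were miR-199-5p (r = 0.80), miR-301b-3p (0.78) and miR-193a-3p (0.69). For miR-221-3p they were let-7f-5p (0.70), let-7c-5p (0.53) and the muscle miRNA miR-1a-3p (0.44). For miR-222a they were miR-17-5p (0.78), let-7g-5p (0.46) and miR-21-5p (0.44). The lists had 0 miRNAs in common, but each holds only 3, and their overlap was not tested. By the same measure the members themselves were at -0.20 (both miR-221 arms), 0.08 (miR-222a and miR-221-3p) and 0.32 (miR-221-5p and miR-222a), where 90% of all pairs lay between -0.56 and 0.62. The 3 miRNAs listed for miR-221-5p had r with log2 of the total reads of -0.89, -0.87 and -0.78 in PeM, in the same order. In BPR these values were -0.71, -0.57 and -0.87. None had an adjusted permutation p under 0.05 within a breed. Without PeM birds 16 and 5 the PeM values were 0.06, -0.50 and 0.95.

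Markers of the cells in the sample were read from the same table. Of 6 listed skeletal muscle miRNAs, 4 were in it, miR-1a-3p, miR-133a-5p, miR-133c-3p and miR-206, and together they held 349350 to 424683 RPM in BPR birds and 301225 to 422924 RPM in PeM birds. Of these 1, miR-206, was past the thresholds and lower in PeM, and their median log2 fold change was -0.04 against 0.07 over all 38. The r of their deviations from the breed mean over the 12 birds ran from -0.54 (miR-1a-3p) to 0.16 (miR-133a-5p) with miR-221-5p, from -0.71 (miR-133c-3p) to 0.44 (miR-1a-3p) with miR-221-3p, and from -0.48 (miR-1a-3p) to 0.08 (miR-133a-5p) with miR-222a. The endothelial miR-126-3p, 1 of 2 listed, ranged from 33001 to 70317 RPM in BPR and from 68782 to 77127 RPM in PeM, and it was past the thresholds and higher in PeM. Its deviations from the breed mean had r = 0.53 with miR-221-5p, -0.81 with miR-221-3p and -0.02 with miR-222a over the 12 birds. In the paper, qPCR of this endothelial miRNA did not match the sequencing. The red blood cell miR-451, 1 of 2 listed, ranged from 1292 to 14861 RPM in BPR and from 2193 to 3299 RPM in PeM, and had r = 0.62 with miR-221-5p, -0.06 with miR-221-3p and 0.36 with miR-222a. Of the 2 smooth muscle and 4 white blood cell miRNAs listed, 0 were in the table. The part of these cells in the values of miR-221-5p, miR-221-3p and miR-222a was not tested.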

How the data were processed

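Small RNA libraries of 12 birds (6 PeM, 6 BPR) were made with a TruSeq kit. After trimming with bbduk, the authors used ArrayStar to align reads to the mature chicken sequences of miRBase. They dropped miRNAs with a mean below 5 reads in each breed, and the deposited table gives RPM of 38 miRNAs. The mismatches allowed, which decide how reads of similar miRNAs are shared, are not given in the sources used here. The submitters' processing notes also name FastQC and galGal5. No coordinates are given, since the gene table used for names is of another assembly. The deposited log2 mean, log2 fold change and p-value columns hold the authors' own comparison and were not used.

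Birds were grouped by their titles. The total reads of a bird were the smallest from 1000 to 20000 with which at least 90% of its RPM values were whole reads within 0.005, and 97.1% of 456 values were whole. These totals are far below the clean reads described by the study, for a reason not known. PeM and BPR were compared with limma 3.58.1 (R 4.3.3) on log2(RPM) of all 38 miRNAs, with no pseudocount and breed as the only factor, in place of the study's t-statistic. P-values were adjusted by the Benjamini-Hochberg method. Exact permutation tests used all 924 assignments of 6 of 12 birds, with a smallest p of 0.00216. Correlations used 100000 resamples for 12 birds and all 720 orders for 6. Binomial intervals are exact Clopper-Pearson intervals at 95%. Python 3.11.15 with scipy 1.17.1 was used, and the fit was tested on simulated data. The rule for named miRNAs was the 3 members, the marker miRNAs and the 3 most similar to each member. The members, lists and tests were chosen with earlier results of these data known. The alternatives were pseudocounts, other scalings, limma-trend, a filter at 2000 RPM, the exact permutation test, a replicate block, ratios of means and leaving out each bird. Limma-voom and the depth covariate were added after seeing the data.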

Additional observations from a re-analysis of the deposited data

Results flagged for a closer look

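Each breed was examined for a bird whose gap to the nearest other bird was a large part of the range of the 6 (Dixon's 95% critical value), in 24 groups of values. There were 4 such values, where chance gives about 1.2 if the groups are independent. They are not, because the ratios, shares and sums reuse the same miRNAs. Both values of BPR bird 6 below come from the same reads. In BPR bird 6 the log2 ratio of miR-222a to miR-221-3p was 3.26, with a gap of 0.745 of the range, and its share of miR-221-3p among the reads of both was 9.46% (exact 95% interval 3.89% to 18.5% at 74 reads), with a gap of 0.66. In BPR bird 3 the log2 ratio of miR-221-5p to miR-222a was -3.08, with a gap of 0.746. This bird had 19 reads of miR-221-5p and 161 of miR-222a. PeM bird 16 had 9120 total reads, a gap of 0.699. The remaining PeM birds had 3021 to 4858.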

How the results depend on the processing

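MiR-221-5p kept its direction and stayed past the thresholds under 10 settings and in all 12 fits without 1 bird. Its log2 fold change ran from 0.821 to 1.27 over the settings and from 1.121 to 1.44 without single birds, and its adjusted p over the settings from 0.000379 to 0.0658. Neither of the other 2 members was past the thresholds under any setting or without any bird. For them the log2 fold change without single birds was 0.0643 to 0.452 (miR-221-3p) and 0.149 to 0.346 (miR-222a).

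BPR and PeM birds share the numbers 1 and 4, which mark different animals. The deviations of same-numbered birds correlated at 0.03 and -0.17 over the miRNAs. A replicate block fitted on these 4 birds has no basis in the design. In it the log2 fold change of miR-222a was -0.243, that of miR-221-3p was 0.0608, that of miR-221-5p was 0.913 (adjusted p = 0.0599), and the difference in the ratio of miR-221-5p to miR-221-3p was 0.853 (unadjusted p = 0.0373). The ratio of miR-221-5p to miR-222a differed by 1.157 (unadjusted p = 0.0203, adjusted p = 0.225) and that of miR-222a to miR-221-3p by -0.304. With this block, 11 miRNAs were past the thresholds, and 2 had an adjusted p under 0.05.

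The difference in the ratio of miR-221-5p to miR-221-3p was past p = 0.05 with the ratio of mean RPM (1.013, exact permutation p = 0.0303) and with limma on the ratios (0.946), and ran from 0.669 to 1.253 without single birds. That of miR-222a to miR-221-3p was 0.0501 with the ratio of mean RPM and ran from -0.253 to 0.225 without single birds. It was above 0 without BPR bird 6 and without PeM bird 1 (0.0264). That of miR-221-5p to miR-222a was not past it with the depth covariate (0.59). The causes were not tested. The 3 sums and the 3 correlations kept their direction under each setting tried, and centring each bird moved r of miR-222a and miR-221-3p from 0.183 to 0.498. Without single birds the log2 difference of the sums was 0.728 to 0.906 (both miR-221 arms), 0.167 to 0.355 (miR-221-3p and miR-222a) and 0.411 to 0.557 (all 3), and r was 0.0238 to 0.371, 0.0362 to 0.392 and 0.295 to 0.673 in the order given above.

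Of the 38 miRNAs, 8 were past the thresholds (6 to 11 over the settings, 7 to 10 without single birds), 87.5% of them higher in PeM. With each bird centred on its median this share was 100%, and with the depth covariate 62.5%. An adjusted p under 0.05 was found for 5. The filter at 2000 RPM, which tests 33 miRNAs, left 3. With the exact permutation test the number was 0, with 9 at an unadjusted p under 0.05. The smallest p of that test, 0.00216, is too high for 1 miRNA alone to pass the adjustment over 38. Without single birds the number from limma was 2 to 6. It was 3 without BPR bird 3, 3 without PeM bird 1 and 2 without PeM bird 8. MiR-221-3p had 7 to 53 reads per bird and miR-221-5p 10 to 35, by the totals calculated from the steps.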
